A study of Mus musculus with 7 samples.

Results

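IGHV1-50, IGHV1-53 and IGHV1-55 are 3 variable (V) genes of the mouse immunoglobulin heavy chain locus, described here in B cells of lymph nodes. Cells were chosen by their V call, a readout of these libraries, so the genes' shares are a description with no test of significance. A cell belonged to a gene when it carried exactly 1 productive heavy chain and the first V gene of its call, without the allele, was that gene. By this rule 346 cells used IGHV1-50, 367 used IGHV1-53 and 349 used IGHV1-55, together 1062 of 17381 cells with 1 heavy chain in 6 libraries. The libraries came from deep cervical (dCLN), superficial cervical (sCLN) and inguinal (iLN) lymph nodes of wild-type (WT) and 5xFAD mice, with 1 library for each node and genotype. All animals were females of 10 to 11 months, perfused before the nodes were taken. A mixed library of all 3 nodes and both genotypes is described apart. 5xFAD mice carry mutant human amyloid precursor protein and presenilin transgenes under a neuronal promoter and develop amyloid deposits in the brain. Cells of differently hashtagged tubes were combined within a library, and which animal a cell came from was not analysed here. With 1 library per group, a difference within a node has no replicate check.

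A B cell builds its heavy chain by joining a V gene to a diversity (D) and a joining (J) gene, and the enzyme terminal transferase adds N bases, which no gene encodes, at the joints. The V gene supplies the first pair of complementarity-determining regions (CDR1 and CDR2), the loops that touch antigen, and the joint forms the third. Naive B cells carry unmutated IgM and IgD, and after activation the enzyme AID can mutate the V segment and switch the isotype to IgG, IgA or IgE. The IGHV1 family, also called J558, is the largest V family of the mouse.

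The 3 genes lie on the minus strand of chromosome 12 in GRCm38, the assembly also called mm10. IGHV1-50 (ENSMUSG00000094198.2) spans 115119748 to 115120219, IGHV1-53 (ENSMUSG00000093894.1) 115158403 to 115158835 and IGHV1-55 (ENSMUSG00000095589.2) 115208095 to 115208591. Each has 2 exons, a short leader exon and an exon with the V segment. From the start of IGHV1-50 to the end of IGHV1-55 the stretch covers 88844 bases. Of the genes in between, IGHV1-52 was used by 278 cells (1.60% of all), IGHV1-54 by 139 (0.80%), IGHV8-6 by 3, and the pseudogene IGHV1-51 by 0. The genes thus sit side by side with others of very unequal use.

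The germline V segments up to the junction, as the deposited alignments give them, are shown because their differences fall in a few places. Capitals mark the 30 of 285 positions at which the 3 genes are not all alike.
IGHV1-50: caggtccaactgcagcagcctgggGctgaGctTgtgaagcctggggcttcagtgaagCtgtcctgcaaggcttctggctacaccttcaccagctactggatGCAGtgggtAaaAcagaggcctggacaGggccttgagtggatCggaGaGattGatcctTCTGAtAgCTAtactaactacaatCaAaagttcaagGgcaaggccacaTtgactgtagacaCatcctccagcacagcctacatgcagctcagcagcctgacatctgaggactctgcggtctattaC
IGHV1-53: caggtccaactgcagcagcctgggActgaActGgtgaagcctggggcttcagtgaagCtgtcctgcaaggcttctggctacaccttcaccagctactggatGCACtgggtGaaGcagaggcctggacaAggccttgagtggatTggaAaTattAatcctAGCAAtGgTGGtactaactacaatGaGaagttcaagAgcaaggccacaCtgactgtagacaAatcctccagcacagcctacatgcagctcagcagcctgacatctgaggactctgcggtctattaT
IGHV1-55: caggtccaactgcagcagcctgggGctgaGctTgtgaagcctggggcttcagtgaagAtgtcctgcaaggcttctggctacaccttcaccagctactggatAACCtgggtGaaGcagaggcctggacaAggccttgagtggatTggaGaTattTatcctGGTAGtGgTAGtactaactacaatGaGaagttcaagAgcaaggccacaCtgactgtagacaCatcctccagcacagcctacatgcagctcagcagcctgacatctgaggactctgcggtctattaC

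CDR1 (positions 76 to 99, counted from the first base of the segment) was identical in the 3 genes. CDR2 (positions 151 to 174) differed at 10 of its 24 bases, and framework 2 at 10 of 51. Framework 1 differed at 4 bases and framework 3 at 6. IGHV1-53 and IGHV1-55 differed at 15 bases, IGHV1-50 and IGHV1-55 at 23, and IGHV1-50 and IGHV1-53 at 25. Among the 95 other genes used, the closest to IGHV1-50 was IGHV1-69 (8 bases) and the closest to IGHV1-53 was IGHV1-72 (12 bases), the gene known for the response to the hapten nitrophenyl. IGHV1-53 and IGHV1-64 were equally close to IGHV1-55. All member calls named a single gene and the *01 allele, and 1 of 1062 cells had another gene in the Cell Ranger call of the same table. All 3 segments were found whole in the GENCODE M21 transcripts of these genes.

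The libraries held 2107 to 3904 cells with 1 heavy chain and 99906 to 312484 immunoglobulin UMIs (unique molecular identifiers, 1 per captured transcript). The mixed library held 2488 such cells. Over the 21 pairs of the 7 libraries 237 cell barcodes were shared, 4 to 28 a pair, and 0 of them had the same receptor in both libraries. Intervals below are exact Clopper-Pearson 95% intervals, those of differences combine 2 such intervals by square-and-add, and all cover counting error only.

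The 3 genes were used at much the same level in every library. Over the 6 libraries IGHV1-53 made up 2.11% of cells (1.90 to 2.34%), IGHV1-55 2.01% (1.80 to 2.23%) and IGHV1-50 1.99% (1.79 to 2.21%), at ranks 13, 16 and 17 of 96 genes. These intervals overlap, so the order of the 3 is within counting error. The share of IGHV1-50 was 1.84% in WT and 1.87% in 5xFAD dCLN, 1.86% and 2.29% in sCLN, and 1.86% and 2.47% in iLN. IGHV1-53 stood at 2.25% in WT and 1.82% in 5xFAD dCLN, 2.15% and 2.25% in sCLN, and 2.09% and 2.23% in iLN. IGHV1-55 stood at 1.57% in WT and 2.20% in 5xFAD dCLN, 2.09% and 2.25% in sCLN, and 1.86% and 2.09% in iLN. For each gene the intervals of all 6 libraries overlapped, as the plot of shares by library shows.

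None of the 9 differences between 5xFAD and WT had an interval of the same sign throughout. Among all genes at 1% or more in a library of the node, 10.5% had such an interval in dCLN, 4.76% in sCLN and 5% in iLN. The nearest was IGHV1-55 in dCLN, at 0.632 percentage points above WT (interval -0.0164 to 1.28, ratio 1.40). Its interval lay wholly above 0 under 4 of the 6 other cell filters, with the lower bound at 0.00176 points where each clone was counted once and 0.0334 points where 3 heavy chain UMIs were required. IGHV1-53 in dCLN had the opposite sign, at -0.434 points (-1.12 to 0.233). The other 7 differences lay between 0.0323 and 0.604 points, all above 0. IGHV1-50 and IGHV1-55 thus lay above WT in all 3 nodes, as did 5 of 44 genes (11.4%), while 6 (13.6%) lay below in all 3. A fold of 1.5 or more in either direction was reached by none of the 9 differences, and by 7.89% of genes in dCLN, 11.9% in sCLN and 10% in iLN.

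**Figure D1:**
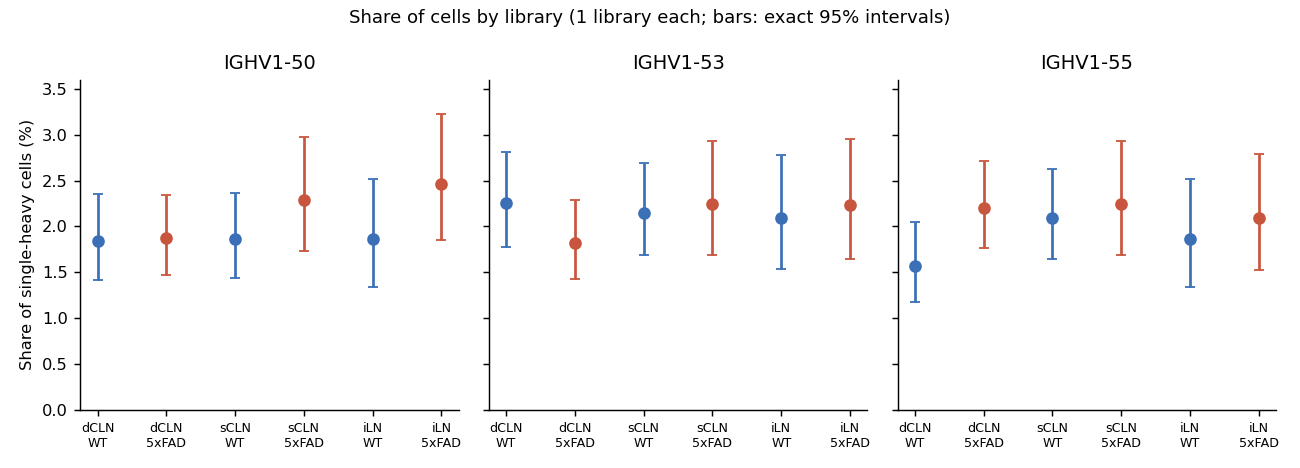
Share of cells with 1 heavy chain that used each gene (y axis, %) in each of 6 libraries (x axis), with exact 95% intervals as bars, WT in blue and 5xFAD in red. The points lie between 1.57% (IGHV1-55, WT dCLN) and 2.47% (IGHV1-50, 5xFAD iLN), and the intervals within a gene overlap.

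Across the 6 libraries the usage of IGHV1-50 was most like that of IGHV14-2 (Pearson r 0.80) and IGHV1-19 (0.72). IGHV1-53 was most like IGHV1-62-2 (0.86) and IGHV14-2 (0.68), and IGHV1-55 was most like IGHV14-3 (0.89) and IGHV1-42 (0.73). These are the 2 highest of 43 genes for each member, over 6 libraries whose shares sum to the whole, and are a description only. The shares of IGHV1-53 and IGHV1-55 themselves had r = -0.33, and those of IGHV1-50 had r = 0.46 with each of the other two.

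The joints of IGHV1-55 differed from those of other cells of the same library in the same direction in all 6 libraries. They used IGHJ1 less often, were shorter, and held more N bases. IGHJ1 was used by 7 of 53 IGHV1-55 cells in WT dCLN (13.2%), 11 of 86 in 5xFAD dCLN (12.8%) and 12 of 72 in WT sCLN (16.7%). The gene's IGHJ1 share was 6 of 53 in 5xFAD sCLN (11.3%), 3 of 41 in WT iLN (7.32%) and 7 of 44 in 5xFAD iLN (15.9%). Other cells lay between 18.2% and 20.1%, above every IGHV1-55 value. The mean difference was -6.14 percentage points (SD 3.67, n = 6, lower in 6 of 6; exact two-sided sign-flip permutation p = 0.03125, Benjamini-Hochberg adjusted 0.191 over 477 tests). Of the 53 genes with enough cells, 2 (3.77%) were lower in all 6 libraries for IGHJ1. A p of 0.03125 is the smallest that 6 libraries allow. It was reached by 78 of the 477 tests, which gives the adjusted 0.191, and no measure of any gene passed an adjusted threshold of 0.05.

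IGHJ2 was the most used J gene of IGHV1-55, with 145 of 349 cells (41.5%) against 33.2% of other cells. The IGHJ2 difference was 8.02 points (SD 6.19, n = 6), with 5 of 6 libraries higher and 5xFAD iLN lower by 2.31 points (exact permutation p = 0.0625, adjusted 0.255). Against other IGHV1 genes alone the IGHJ2 difference was 4.79 points. IGHJ3 (22.3%) and IGHJ4 (22.9%) of IGHV1-55 were near the 22.7% and 25.1% of other cells.

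The junction, from the conserved cysteine codon to the conserved tryptophan codon, averaged 40.9 bases in WT dCLN, 41.9 in 5xFAD dCLN and 40.0 in WT sCLN for IGHV1-55. It averaged 40.6 in 5xFAD sCLN, 41.0 in WT iLN and 41.4 in 5xFAD iLN, while other cells averaged 42.1 to 42.5 bases. The IGHV1-55 junctions were shorter by a mean of 1.39 bases (difference -1.39, SD 0.558, n = 6; exact permutation p = 0.03125, adjusted 0.191), and 10 of 53 genes (18.9%) were shorter in all 6 libraries. The median junction was 42 bases in IGHV1-55 and in other cells. N bases were counted only in cells with a D call, which 37 of 349 IGHV1-55 cells lacked. They numbered 7.20 to 8.42 per cell in the 6 libraries against 7.06 to 7.27 in other cells. The mean excess was 0.519 bases (SD 0.490, n = 6; exact permutation p = 0.03125, adjusted 0.191), and 4 of 53 genes (7.55%) were higher in all 6. Both dCLN libraries had an excess of only 0.0503 and 0.0507 bases, and against other IGHV1 genes the mean excess was 0.260 bases with no common sign.

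IGHV1-55 also paired less often with lambda light chains, which a small share of mouse B cells carry in place of kappa. The counts were 0 of 53 cells in WT dCLN, 2 of 86 in 5xFAD dCLN, 0 of 72 in WT sCLN, 1 of 53 in 5xFAD sCLN, 1 of 40 in WT iLN and 1 of 43 in 5xFAD iLN. Together 5 of 347 cells (1.44%, 0.469 to 3.33%) had lambda, against 4.62% of other cells. The mean difference was -3.14 points (SD 1.33, n = 6, lower in 6 of 6; exact permutation p = 0.03125, adjusted 0.191). Of 53 genes, 7 (13.2%) were lower and 3 (5.66%) higher in all 6 libraries. The other two genes leaned the same way, in 5 of 6 libraries each, with 8 of 345 lambda cells for IGHV1-50 (2.32%) and 10 of 361 for IGHV1-53 (2.77%). Their mean differences were -2.38 points (SD 1.44, exact permutation p = 0.0625, n = 6, adjusted 0.255) and -1.81 points (SD 2.15, exact permutation p = 0.125, adjusted 0.351). Against other IGHV1 genes alone the lambda differences were smaller, at -2.01 points for IGHV1-55, still lower in all 6 libraries, -1.24 for IGHV1-50 and -0.659 for IGHV1-53.

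IGHV1-50 and IGHV1-53 had no measure of the same sign in all 6 libraries. Their N bases exceeded those of other cells by 0.553 (SD 0.732) and 0.519 (SD 0.448), each in 5 of 6 libraries. IGHV1-53 used IGHJ4 in 71 of 367 cells (19.3%) against 25.2% of other cells, lower in 4 of 6 libraries (mean -5.23 points, SD 5.30, n = 6; exact permutation p = 0.125, adjusted 0.351). Counting each clone once gave -5.67 points for IGHJ4, lower in all 6. IGHV1-50 used the 4 J genes in 16.2%, 36.7%, 22.5% and 24.6% of cells, in order from IGHJ1 to IGHJ4, and other cells in 18.9%, 33.3%, 22.6% and 25.1%.

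**Figure D2:**
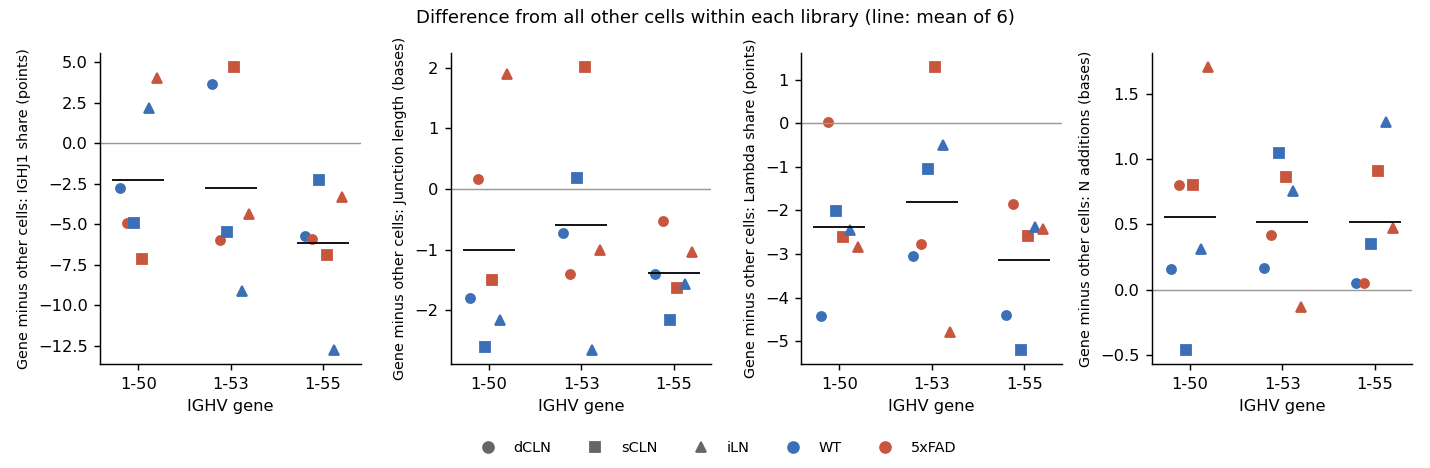
Difference between the cells of each gene and all other cells of the same library (y axis, points or bases) for IGHJ1 share, junction length, lambda share and N bases, with 1 point per library, shapes for nodes, colours for genotypes and a line at the mean of 6. All 6 points of IGHV1-55 lie on the same side of 0 in each panel.

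The most used D gene and light chain V gene were the same in all 3 genes, with percentages pooled over the 6 libraries. IGHD1-1 was called in 119 of 304 IGHV1-50 cells with a D call (39.1%), 128 of 331 IGHV1-53 cells (38.7%) and 117 of 312 IGHV1-55 cells (37.5%). The next most used D genes were IGHD2-5 and IGHD4-1 (29 cells each) for IGHV1-50, IGHD2-4 (40) and IGHD4-1 (38) for IGHV1-53, and IGHD4-1 (36) and IGHD2-3 (35) for IGHV1-55. IGHD2-5 was in 9.54% of IGHV1-50 cells against 5.41% of other cells (difference 4.13 points, 1.05 to 8.02, higher in 5 of 6 libraries). IGKV10-96 was the most used light chain V gene of all 3, with 23, 18 and 21 cells in the order IGHV1-50, IGHV1-53 and IGHV1-55. IGHV1-50 paired with IGKV1-135 in 20 of 345 cells (5.80%) against 3.15% of other cells (difference 2.65 points, 0.415 to 5.68, 18 distinct heavy junctions). It paired with IGKV9-120 in 13 cells (3.77% against 1.71%, difference 2.06 points, 0.300 to 4.66, higher in 4 of 6 libraries) and with IGKV6-17 in 15 (4.35% against 3.02%). For IGHV1-53 the next partners were IGKV1-135 and IGKV17-127 (14 cells each) and IGKV1-117 (13), and for IGHV1-55 IGKV17-127 (14), IGKV6-15 (13) and IGKV1-117 (12). Apart from the 3 excesses of IGHV1-50 with IGHD2-5, IGKV1-135 and IGKV9-120, the interval of each named D or light chain difference held both signs. Among the 3 most used D genes of all 53 V genes, 10 of 159 pairs (6.29%) had an interval above 0, and among the 4 most used light chain V genes 66 of 212 (31.1%), against 2 of 12 light chain pairs and 1 of 9 D pairs of the 3 genes.

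Cells of IGHV1-55 yielded fewer heavy chain UMIs than their neighbours, a comparison chosen after the values were seen and given without a test. Among unswitched cells the median was 6 UMIs in WT dCLN, 9.5 in 5xFAD dCLN, 7.5 in WT sCLN, 9 in 5xFAD sCLN, 6.5 in WT iLN and 9 in 5xFAD iLN. Other cells had medians of 9, 13, 11, 12, 12 and 11 in the same order. The ratio lay between 0.542 and 0.818 (mean 0.698 ± 0.0937 SD, n = 6), below 1 in every library, as it was for 14 of 53 genes (26.4%). The mean ratio was 0.924 for IGHV1-53 and 0.972 for IGHV1-50. For the light chains of the same IGHV1-55 cells the ratio was 0.924 to 1.10 (mean 0.980), and 0 of 53 genes (0%) were lower in all 6 libraries for light chain UMIs. The light chain counts thus showed no such common direction.

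The share of IgD among unswitched IGHV1-55 cells was higher than in other cells of every library, also a comparison chosen after its values were seen. It was 16 of 49 cells (32.7%) in WT dCLN, 15 of 82 (18.3%) in 5xFAD dCLN, 23 of 68 (33.8%) in WT sCLN and 13 of 52 (25%) in 5xFAD sCLN. In iLN it was 20 of 40 (50.0%) in WT and 10 of 43 (23.3%) in 5xFAD. Other cells had 27.8%, 16.4%, 23.3%, 19.3%, 21.3% and 20.5% in the same order, and 5 of 53 genes (9.43%) were higher in all 6. IgD calls moved with UMIs in all cells. In cells of genes other than the 3, IgD fell from 51.8% at 3 to 5 heavy chain UMIs to 11.5% at 11 to 20. IGHV1-55 had 60.9% IgD at 1 to 2 UMIs against 60.3% in cells of other genes. At 3 to 5 UMIs IGHV1-55 had 60.3% (48.5 to 71.2%) against 51.8% (49.6 to 54.1%), and at 6 to 10 it had 26.0% against 27.5%. At 11 to 20 UMIs IGHV1-55 was lower, with 2.22% (0.270 to 7.80%) against 11.5% (10.8 to 12.3%). Over all unswitched cells IgD was 29.0% for IGHV1-55, 19.7% for IGHV1-53, 17.9% for IGHV1-50 and 21.6% for cells of other genes. The part of UMIs in these shares was not tested beyond those ranges.

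**Figure D3:**
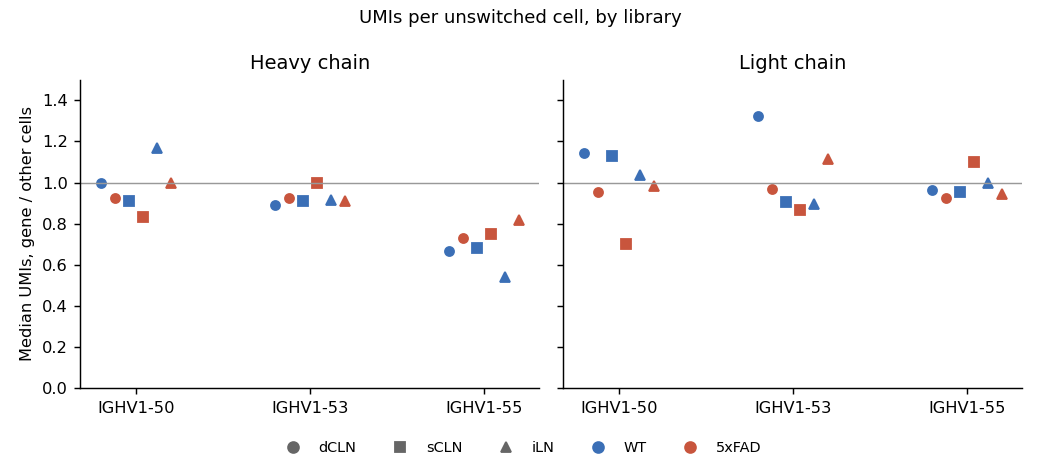
Median UMIs of unswitched cells of each gene divided by the median of all other unswitched cells of the same library (y axis), for the heavy chain and the light chain, with 1 point per library. IGHV1-55 lies between 0.542 and 0.818 for the heavy chain and between 0.924 and 1.10 for the light chain.

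Most cells of the 3 genes were unswitched and unmutated. Switched cells numbered 14 of 344 with an isotype call for IGHV1-50 (4.07%), 19 of 364 for IGHV1-53 (5.22%) and 12 of 346 for IGHV1-55 (3.47%), against 3.21% of cells of other genes. The mean within-library differences from other cells were 0.730, 1.96 and 0.140 points, none of the same sign in all libraries (exact permutation p = 0.96875, 0.5 and 0.75, n = 6, adjusted 0.996, 0.729 and 0.881). Leaving out WT dCLN turned the mean difference of IGHV1-50 to -0.917 points, and that of IGHV1-53 fell to 0.590 points without 5xFAD sCLN and 0.899 without 5xFAD dCLN. IgE was 0 in each gene, and IgG3 was 0 as well.

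Switched cells of IGHV1-50 and IGHV1-53 were found in all 4 cervical libraries, with the highest share in different ones, and none was found in iLN for either. IGHV1-50 had 8 of 62 switched cells in WT dCLN (12.9%), 2 of 73 in 5xFAD dCLN, 3 of 63 in WT sCLN and 1 of 53 in 5xFAD sCLN. Taking a count of 0 as at most 3 counts, its 0 of 41 (WT) and 0 of 52 (5xFAD) in iLN allow shares of up to 7.32% and 5.77%. The exact intervals reach 8.60% and 6.85%. IGHV1-53 had 2 of 75 in WT dCLN, 8 of 71 in 5xFAD dCLN (11.3%), 3 of 74 in WT sCLN and 6 of 52 in 5xFAD sCLN (11.5%). Its iLN counts were 0 of 45 and 0 of 47, which allow up to 6.67% and 6.38% by the same rule. The exact intervals of IGHV1-53 there reach 7.87% and 7.55%. Other cells of iLN were switched in only 1.46% (WT) and 1.23% (5xFAD). At these cell numbers the counts of 0 do not set the genes apart from other cells. IGHV1-55 had 3 of 52, 4 of 86, 3 of 71 and 1 of 53 in the cervical libraries in the same order, and 0 of 40 and 1 of 44 in iLN.

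In 3 of these 18 values the interval lay above that of all other cells of the library, a comparison added after the values were seen. IGHV1-50 in WT dCLN had 5.74 to 23.9% against 3.29 to 4.66%, as did 4 of 53 genes there (7.55%). IGHV1-53 in 5xFAD dCLN had 4.99 to 21% against 3.38 to 4.65%, and it was the single gene of 53 (1.89%). IGHV1-53 in 5xFAD sCLN had 4.35 to 23.4% against 2.08 to 3.46%, as did 4 of 53 genes (7.55%). Clones carried part of each value. When a clone counted as 1 cell, these shares became 5 of 55 (9.09%, 3.02 to 20.0%), 5 of 65 (7.69%, 2.54 to 17.0%) and 5 of 47 (10.6%, 3.55 to 23.1%). On that count the intervals of IGHV1-50 in WT dCLN and IGHV1-53 in 5xFAD dCLN overlap those of other cells given above, which count every cell. That of IGHV1-53 in 5xFAD sCLN lay above 3.46%. With at least 3 heavy chain UMIs its share was 4 of 48 (8.33%, 2.32 to 20.0%), which overlaps too. Other cells counted once per clone had 3.39%, 3.55% and 2.58% in the order of the 3 values. With at least 3 UMIs, other cells of 5xFAD sCLN had 2.34%.

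Summed over nodes the WT and 5xFAD libraries gave opposite orders for these 2 genes. IGHV1-50 had 11 of 166 switched cells in WT (6.63%, 3.35 to 11.5%) and 3 of 178 in 5xFAD (1.69%, 0.349 to 4.85%). IGHV1-53 had 5 of 194 in WT (2.58%, 0.842 to 5.91%) and 14 of 170 in 5xFAD (8.24%, 4.58 to 13.4%). Within each gene the 2 intervals overlap, and they treat cells as independent although cells are not replicates of a genotype. IGHV1-55 had 6 of 163 in WT (3.68%) and 6 of 183 in 5xFAD (3.28%). With each clone counted once, IGHV1-50 had 8 of 158 in WT (5.06%) and 3 of 168 in 5xFAD (1.79%). On that count IGHV1-53 had 5 of 184 in WT (2.72%) and 10 of 155 in 5xFAD (6.45%). Paired within a node, a comparison added after the values were seen, the switched share of IGHV1-50 in 5xFAD differed from WT by -10.2 points in dCLN, -2.88 in sCLN and 0 in iLN. For IGHV1-53 these differences were 8.60, 7.48 and 0 points, and for IGHV1-55 -1.12, -2.34 and 2.27. The means were -4.35 (SD 5.24), 5.36 (SD 4.68) and -0.395 points (SD 2.39). An exact two-sided sign-flip permutation test gave p = 0.5, 0.5 and 0.75 (n = 3 nodes, each adjusted to 1 over 53 genes). With 3 nodes that test cannot go below 0.25. For IGHV1-50 and IGHV1-53, whose iLN difference was 0, it cannot go below 0.5. It therefore could not decide whether the genotypes differ. Of 53 genes, 3 (5.66%) were above WT in all 3 nodes and 3 (5.66%) below.

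The isotypes of the switched cells are given as counts, which clones weight and which were not tested between genes. IGHV1-50 had 7 IgG2b, 6 IgG2c and 1 IgA cell, and all 6 IgG2c cells came from WT dCLN, 5 of them in 2 clones of 3 and 2 cells. IGHV1-53 had 8 IgG2b, 6 IgG1, 3 IgG2c and 2 IgA cells. Of its IgG2b cells, 5 of 8 were in 5xFAD dCLN, 4 of these in a single clone. Of its IgG1 cells, 5 of 6 were in 5xFAD sCLN. Among these 5, 2 were a pair with the same receptor and the same 8 mutations, with 1 heavy chain UMI each. IGHV1-55 had 5 IgG2c, 4 IgG2b, 2 IgA and 1 IgG1 cell, and its 3 switched cells of WT sCLN were all IgG2c. In cells of other genes the switched isotypes were 183 IgG2b, 155 IgG2c, 109 IgG1, 53 IgA and 18 IgG3. IgG2c is the isotype linked to interferon and viral or autoimmune responses in this species, and IgG1 to interleukin-4.

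Switched cells carried most of the V mutation, given as the percent of V bases that differ from the germline. The mean was 3.17% (SD 1.98 over 14 cells) for IGHV1-50, 2.89% (SD 1.99 over 19 cells) for IGHV1-53 and 2.78% (SD 3.28 over 12 cells) for IGHV1-55, against 2.60% (SD 2.50 over 518 cells) in cells of other genes. These SDs are over cells, which share clones and libraries. Unswitched cells with any mutation numbered 5 of 330 for IGHV1-50 (1.52%), 13 of 344 for IGHV1-53 (3.78%) and 6 of 334 for IGHV1-55 (1.80%), against 4.01% of cells of other genes. Any mismatch to the deposited germline was counted. A gene with a fixed germline difference would therefore raise the value of other genes, which was not tested, so that value is no firm background. The highest value among switched cells of the 3 genes was in IGHV1-55, where 2 IgG2c cells of WT sCLN had 23 and 30 mutations (7.82% and 10.2%). Of its 12 cells, 4 had no mutation, 2 of them an IgA pair of 5xFAD dCLN with the same receptor. In IGHV1-50 and IGHV1-53, 1 of 14 and 1 of 19 switched cells had none. In cells of other genes 84 of 518 had none, and the highest value was 13.4%.

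Mutations lay more often in CDR1 and CDR2 than the length of these regions would give. Counting a substitution once per clone, 15 IGHV1-50, 26 IGHV1-53 and 15 IGHV1-55 clones or single cells carried 109, 184 and 104 substitutions. CDR1 and CDR2 make up 16.8% of the 285 bases and held 30.3%, 31.0% and 36.5% of the substitutions. Substitutions that change the encoded amino acid were 66.1%, 72.3% and 71.2%. AID is known to prefer the C of AAC, AGC, TAC or TGC, and the same motifs read on the other strand, the G of GTT, GCT, GTA or GCA. Such bases are 16.1%, 15.8% and 15.8% of the segments and held 56.0%, 45.1% and 41.3% of the substitutions. These shares are descriptions of few clones.

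The position most often hit in IGHV1-53 was 197, in framework 3, mutated in 11 of 26 mutated clones and in 16 cells of 4 libraries. The substitution G197A was seen in 8 of these clones and in 13 cells, both WT and 5xFAD and both cervical nodes. It was found on IgM, IgG1, IgG2b and IgA. G197A also occurred in 4 IGHV1-55 clones, on IgG2c and IgG1, where it was again the most frequent, and in 2 IGHV1-50 clones, both IgG2b. The 15 bases around it are shown with position 197 in capitals, and are the same in IGHV1-53 and IGHV1-55.
IGHV1-53 and IGHV1-55, positions 190 to 204: ttcaagaGcaaggcc

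The next positions of IGHV1-53 were 170 (9 clones) and 161 (8 clones), both in CDR2. IGHV1-50 was hit most often at 167 in CDR2, in 6 of 15 mutated clones, 5 of them with G167A, followed by 216 and 246 in framework 3 (5 clones each). In IGHV1-55, positions 104, 164, 170 and 177 followed with 3 clones each. Of these positions, 167 and 246 in IGHV1-50, 161, 170 and 197 in IGHV1-53 and 104, 170, 177 and 197 in IGHV1-55 are at a base of the motifs above. The germline around the most frequent CDR2 positions of IGHV1-50 and IGHV1-53 is shown with the mutated base in capitals.
IGHV1-50, positions 160 to 174: tctgataGctatact
IGHV1-53, positions 163 to 177: aatggtgGtactaac
IGHV1-53, positions 154 to 168: aatcctaGcaatggt

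**Figure D4:**
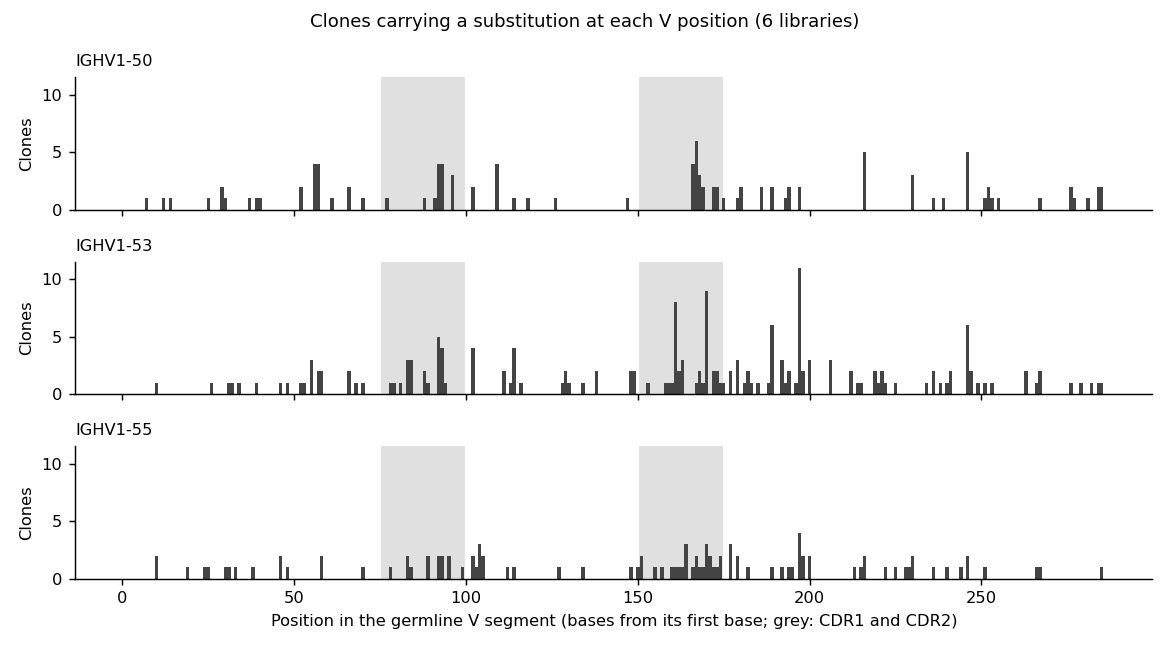
Number of clones with a substitution (y axis) at each base of the germline V segment (x axis, from its first base), for each gene, with CDR1 and CDR2 shaded. The tallest bar is position 197 of IGHV1-53 with 11 clones, and the same position leads in IGHV1-55 with 4.

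A clone was taken as cells of 1 library with the same V and J gene and junction length, junctions within 15% of their bases by single linkage, and light chains alike in V, J and junction length. IGHV1-50 had 17 clones of 2 or more cells (35 of 345 cells with a light chain, 10.1%), IGHV1-53 had 21 (46 of 361, 12.7%) and IGHV1-55 had 10 (20 of 347, 5.76%). Other cells stood at 8.64%, 8.58% and 8.73% beside the 3 genes. The mean differences were 1.57, 4.41 and -2.03 points (SD 7.22, 5.92 and 4.17, n = 6; exact permutation p = 0.65625, 0.1875 and 0.3125, adjusted 0.828, 0.434 and 0.538), none of the same sign in all libraries. All but 3 of these 48 clones had 2 cells. Unmutated clones numbered 15 of 17, 18 of 21 and 10 of 10. Clones with an identical heavy and light junction in all cells numbered 16, 19 and 10, so most were pairs of barcodes with the same unmutated receptor. Whether such a pair is 2 cells of a clone or 1 cell under 2 barcodes was not tested. With identical barcodes counted as 1 cell, the mean differences in clone share became 0.107, 0.757 and -0.500 points.

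The clones of 2 or more barcodes with switched cells are described with their heavy junctions. Capitals mark the bases that the calls assign to no V, D or J gene. Whether the barcodes of each are separate cells was not tested.
IGHV1-50, WT dCLN, 3 cells: tgtataagGGGGCGGCATCtgggctactgg
IGHV1-50, WT dCLN, 2 cells: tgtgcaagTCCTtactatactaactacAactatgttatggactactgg
IGHV1-53, 5xFAD dCLN, 5 cells: tgtgcaagaGGaactgggactgactactgg
IGHV1-53, 5xFAD sCLN, 2 cells: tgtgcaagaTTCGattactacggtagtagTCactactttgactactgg
IGHV1-55, 5xFAD dCLN, 2 cells: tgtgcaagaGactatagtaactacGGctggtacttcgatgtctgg

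The first, an IgG2c clone with IGHJ4 and IGKV11-125, had 16 mutations, the same in all 3 cells (5.46%). Its cells held 1231, 4864 and 4931 heavy chain UMIs, far above the library median of 9. A further IgG2c cell of WT dCLN, with IGHJ3 and IGKV19-93, held 5762 UMIs and no mutation. Heavy chain counts of this size are typical of antibody-secreting cells, whose marker genes were not analysed here. Cells with at least 100 heavy chain UMIs numbered 5 of 346 for IGHV1-50, 0 of 367 for IGHV1-53 and 2 of 349 for IGHV1-55, against 68 of 17381 in all genes. The first clone above made up 3 of the 5 IGHV1-50 cells, and the 2 IGHV1-55 cells were also a single clone. The second IGHV1-50 clone paired with IGKV12-44 and had 7 mutations in each IgG2c cell, 6 of them shared, with 21 and 26 UMIs. C93T and C96T, both in CDR1, were found in both of these IGHV1-50 clones.

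The IGHV1-53 clone of 5xFAD dCLN, with IGHJ2 and IGKV6-13, was the largest of the 3 genes in the 6 libraries. Its 4 IgG2b cells carried 7, 7, 8 and 10 mutations, of which 7 were common to all 4, G197A among them. Its IgM cell had the same heavy junction but 3 other mutations, 0 of them shared with the IgG2b cells. The 5 cells had 3 distinct light chain junctions. Its joint is short, and by the heavy chain alone the clone had 6 cells with 2 kinds of light chain. An IGHV1-53 pair of 5xFAD sCLN, both IgG1 with IGKV13-85, shared all 8 mutations, G197A included, and each cell held 1 heavy chain UMI. A mutated pair of IgM cells in WT sCLN, with IGKV3-5, had 7 and 11 mutations, 6 of them shared, again with G197A. The 3-cell clone of IGHV1-53 in 5xFAD sCLN, with IGKV17-121, was unmutated IgM and IgD.

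The IGHV1-55 pair of 5xFAD dCLN, with IGHJ1 and IGKV2-137, was IgA, unmutated and held 503 and 597 heavy chain UMIs. No clone of the 3 genes with an identical heavy junction and a light chain alike in V, J and junction length was found in more than 1 library (0 clones). A single heavy junction of 42 bases was shared by 2 libraries, in an IGHV1-55 cell of WT dCLN and another of 5xFAD sCLN, with different light chains.

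In the mixed library, 43 cells used IGHV1-50 (1.73%), 63 IGHV1-53 (2.53%) and 46 IGHV1-55 (1.85%) of 2488. IGHJ1 was used by 4 of 63 IGHV1-53 cells (6.35%, 1.76 to 15.5%), against 21.2% of other cells there, and by 8 of 46 IGHV1-55 cells (17.4%) against 20.8%. The lambda share was 2 of 43, 1 of 63 and 2 of 46 in the same order of genes. The median of heavy chain UMIs in unswitched IGHV1-55 cells was 5 against 9 in other cells, a ratio of 0.556, and the light chain ratio was 1. IgD was 13 of 36 unswitched IGHV1-55 cells (36.1%). Switched cells numbered 2 of 43 for IGHV1-50, 5 of 61 for IGHV1-53 (8.20%) and 8 of 44 for IGHV1-55 (18.2%), against 6.72% of cells of other genes. A mixed-library IGHV1-53 group of 5 mutated IgM cells with IGKV3-7 met the clone rule through 4 heavy junctions, had 3 to 9 mutations and shared 0 of them in all cells, with G197A in 2.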

How the data were processed

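Single-cell V(D)J libraries of B cell receptors from lymph node cells came from a 10x Genomics kit, per the labels. The submitters' processing notes list Cell Ranger 6.0.1 and Seurat 4.1.0 as tools and mm10 as build. The tables list 1 productive contig per line with IgBLAST-style V, D and J calls, per the file headers, while the germline set behind them is not given in the sources used here. The authors deposited UMI counts per contig. The V identity is a fraction that the authors deposited, used only as an alternative. Per the file headers, junctions and N stretches are measured in bases. The N bases of a cell were the summed stretches on both sides of D, and cells without a D call were left out.

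The 3 genes, measures and lists were chosen with earlier results of these data known, so gene shares are given as a description. Barcodes with exactly 1 heavy chain were kept, and no doublet caller was run. V mutation was counted from the deposited alignments up to the end of the germline V. The light chain of most UMIs stood for the cell. Shares have exact 95% intervals, and a count of 0 allows 3 counts. Cells of a clone are not independent, so intervals cover counting error only.

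Within each library the cells of a gene were compared with all other cells for 9 measures. The 6 differences were tested by an exact two-sided sign-flip permutation test over 64 sign patterns, for all 53 IGHV genes with at least 10 cells in each library, with Benjamini-Hochberg adjustment over the 477 tests. Whether libraries share animals was not known, so the differences may not be independent. A gene counted as called when all 6 differences had the same sign, and percentages of genes called stand beside the counts. Named genes were the members, all isotypes and IGHJ1 to IGHJ4, the 2 genes of most similar usage (among genes reaching 1% in some library), the closest in germline sequence, the 4 most used light chain V and 3 most used D genes, the largest and switched clones, and the 3 positions mutated in most clones. Coordinates are from GENCODE M21 on GRCm38, in which the 3 genes were found. Alternatives varied the cell filters, comparator, clone rule, mutation measure and libraries. Comparisons of UMIs, IgD and switched shares within a library were added after the values were seen, with their alternatives. The counters of mutations and clones and the test were tested on simulated data. Python 3.11.15, pandas 2.3.3 and scipy 1.17.1 were used.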

Additional observations from a re-analysis of the deposited data

Results flagged for a closer look

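The mixed library, whose cells have no node or genotype and enter no comparison, held 8 switched cells among 44 IGHV1-55 cells with an isotype call, a share of 18.2% (8.19 to 32.7%). This interval lies above that of the 6 libraries for the same gene, 3.47% (1.80 to 5.98%), but it treats each barcode as an independent cell. By clone, the 8 switched cells were 2 clones or single cells, and the 36 unswitched cells were 36. Cells of other genes were also switched more often in the mixed library, in 6.72% against 3.21% in the 6 libraries. All 8 were IgG2c, and 7 of them formed a clone with IGHJ2, IGHD1-1 and IGKV3-7 and the same heavy and light junction. The heavy junction is shown with the bases assigned to no V, D or J gene in capitals.
IGHV1-55, mixed library, 7 cells: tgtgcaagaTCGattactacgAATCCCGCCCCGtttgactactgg
The 7 cells carried the same 10 mutations (3.40%), and each held 1 to 3 heavy chain UMIs, 12 UMIs in all. No other barcode of the 7 libraries held this junction (0 barcodes in other libraries, 0 with 2 heavy chains). Whether the 7 barcodes are 7 cells was not tested.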

How the results depend on the processing

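Of 42 results under the alternatives, all 9 share differences stayed within their main interval. For IGHV1-55, IGHJ1 share, junction length and lambda share kept their sign in all 6 libraries under every cell filter and against other IGHV1 genes. The N base excess of IGHV1-55 lost the common sign with at least 3 heavy chain UMIs (0.531), each clone counted once (0.555), identical barcodes as 1 cell (0.553) and other IGHV1 genes only (0.260), and its clone share gained a common sign with identical barcodes as 1 cell (-0.500 points). The lambda difference of IGHV1-50 gained a common sign with single-gene calls only (-2.40 points) and with multiple heavy chains added (-2.42). For IGHV1-53, IGHJ4 (-5.67 and -5.85 points) and N bases (0.523 and 0.491) did so with each clone counted once and with identical barcodes as 1 cell. Differences close to 0 reversed. For IGHJ3 of IGHV1-55 they were -0.255 with at least 3 UMIs, -0.0700 with multiple heavy chains added, -0.192 by clone, -0.150 by identical barcodes and -0.0151 against IGHV1 genes. For IGHJ3 of IGHV1-50 they were -0.392, -0.438 and -0.281 by clone, by identical barcodes and against IGHV1 genes, and for its IGHJ4 0.591 against IGHV1 genes, where its heavy chain UMI ratio was 1.05. The cause was not tested.

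Leaving out each library in turn, which cannot give an exact p below 0.0625, moved IGHV1-50 between -1.21 and 1.16 points for IGHJ3, -2.60 and 0.494 for IGHJ4, -0.917 and 1.17 for switched cells, -2.86 and -1.98 for lambda, and -0.337 and 3.35 for clones, and between 0.324 and 0.756 N bases. IGHV1-53 lay between 0.590 and 2.65 points for switched cells, 2.19 and 5.12 for IGHJ3, -2.43 and -1.21 for lambda, and 0.414 and 0.649 N bases. IGHV1-55 lay between 6.43 and 10.1 points for IGHJ2, -0.755 and 1.32 for IGHJ3, and -0.171 and 0.459 for switched cells. Its measures of common sign lay between -6.92 and -4.82 points for IGHJ1, -1.56 and -1.24 junction bases, -3.40 and -2.73 points for lambda, and 0.366 and 0.613 N bases. Counting each clone once moved the mean mutation of switched cells to 2.82%, 2.91% and 3.03%. With 40 to 86 cells of a gene in a library, differences of a few points in J or lambda share within 1 library were not detectable at this depth.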
